A study of Thermothelomyces thermophilus with 49 samples.

Results

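MYCTH_81925 encodes a cellobiose dehydrogenase (CDH) of the thermophilic fungus Thermothelomyces thermophilus. It was taken by its locus tag from the table of raw counts, 1 gene of 9292, and followed through 4 strains and 6 growth states. In the assembly ASM22609v1 the gene lies on chromosome 4 from 3805817 to 3808908, a span of 3092 bp, and the protein is annotated with a cytochrome module (AA8) and a flavin-dependent dehydrogenase module (AA3). No other annotated gene overlaps this span, and the nearest one before it, a tRNA gene, ends 279 bases away.

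CDH is a secreted enzyme that oxidises cellobiose, the disaccharide released from cellulose, at its flavin module. The electrons pass to the haem of the cytochrome module and from there to lytic polysaccharide monooxygenases (LPMOs), copper enzymes that cleave cellulose chains oxidatively, many of which belong to family AA9 in this fungus. In Neurospora crassa, a relative of this fungus, the transcription factors CLR-1 and CLR-2 are needed for the expression of cellulase genes on cellulose, and CDH genes are among those expressed with the cellulases.

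RNA with poly(A) tails was measured in whole mycelium of the parental strain MJK20.3 (Δku80, which lowers ectopic integration of DNA) and of 3 deletion strains, BS7.8 (Δku80, Δclr1), BS6.4 (Δku80, Δclr2) and JK2.8 (Δku80, Δclr4). The deletions were made in MJK20.3 or in MJK20.2, the Δku80 strain from which MJK20.3 was subcultured. Each strain is 1 clone, grown in 2 bioreactor cultures, and every culture was sampled in exponential growth on glucose (ex), in the steady state of a glucose-limited chemostat (SS), and at 0.5, 1, 2 and 4 h after a spike of cellulose (t1, t2, t3 and t4). This gave 48 libraries in 24 groups of 2, with 2567179 to 22212257 counted reads each. At the spike, part of the broth was replaced by cellulose and medium without glucose, and the cultures went on as a batch. What is called the response to cellulose thus includes the end of the glucose feed and of the chemostat. These changes cannot be told apart from the cellulose itself. RNA of the parental strain and Δclr2 was purified further, treated with DNase and sequenced at one centre, and that of Δclr1 and Δclr4 was sequenced at another without these steps. Centre and strain cannot be told apart in a comparison of levels across this split, so levels were compared between strains only within a centre. The responses to cellulose, in which a constant factor of a gene cancels, were compared between all strains. A constant amount added to the counts at one centre would not cancel, and this was not tested. The deleted genes bore out the labels, with 0 to 20 counts of clr1 in Δclr1 (at most 1.61 CPM, counts scaled to a common library size, against at least 38.9 CPM elsewhere), 0 or 1 count of clr2 in Δclr2 and 0 to 2 counts of clr4 in Δclr4.

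On glucose the MYCTH_81925 transcript was scarce in all strains. In the parental strain 35 reads were counted in each of the 2 ex libraries and 51 and 49 in the SS libraries, which is 9.80 and 8.79 CPM in ex and 10.0 and 11.7 CPM in SS after scaling of the libraries by the TMM method (trimmed mean of M-values). Δclr2 had 9.99 and 11.5 CPM in ex and 9.39 and 10.2 CPM in SS. Δclr1 had 17.5 and 20.7 CPM in ex and 16.6 and 27 CPM in SS, and Δclr4 had 17.9 and 18.1 CPM in ex and 21.8 and 29.8 CPM in SS. All 8 glucose libraries of the second centre stood above the 8 of the first, a split in which strain and centre cannot be told apart. By counts per kb of gene span, the gene ranked between 6109 and 7367 among the 9292 genes in the 8 SS libraries.

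No difference between exponential growth and the steady state passed the test for MYCTH_81925, although many other genes differed between these states. The log2 difference of ex against SS was -0.22 in the parental strain (standard error, SE, 0.48, adjusted p = 0.74), -0.20 in Δclr1 (SE 0.37, adjusted p = 0.69), 0.16 in Δclr2 (SE 0.48, adjusted p = 0.82) and -0.51 in Δclr4 (SE 0.37, adjusted p = 0.26), by edgeR's quasi-likelihood test with Benjamini-Hochberg adjustment over 8565 tested genes. The threshold was 0.05 throughout. This contrast called 41.9% of all tested genes in the parental strain in either direction, as it did 45.9% in Δclr1, 38.4% in Δclr2 and 47.8% in Δclr4.

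In the parental strain the gene was induced within 0.5 h of the cellulose spike and became one of the most abundant transcripts per kb. The 2 cultures had 2252 and 3909 CPM at t1, 8096 and 10245 CPM at t2, 11368 and 9419 CPM at t3, and 7529 and 5751 CPM at t4. No cellulose library overlapped with the glucose libraries, t1 was below the later times in both cultures, and t2 and t3 overlapped. The rank per kb went from 7367 and 7176 at SS to 134 and 51 at t1, and lay between 20 and 41 in the 6 later libraries.

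Relative to SS, the parental level was 284-fold higher at t1 (log2 fold change 8.15, SE 0.49, 95% interval 7.16 to 9.14, adjusted p = 1.1e-14), 845-fold at t2 (9.72, SE 0.51, adjusted p = 3.1e-16), 957-fold at t3 (9.90, SE 0.52, adjusted p = 2.4e-16) and 612-fold at t4 (9.26, SE 0.51, adjusted p = 8.6e-16). The mean of the 4 responses, each time against SS, was 9.26 (SE 0.49, adjusted p = 3.0e-16) and ranked 14 among the 8565 genes tested. Of these genes 15.5% were called higher at t1, 20.1% at t2, 13.7% at t3, 7.45% at t4 and 15.3% over the mean, with 21.4% called lower over the mean. The p-values rest on 2 cultures of 1 clone per strain with a spread shared between all groups, and an exact permutation test of 2 against 2 libraries cannot go below 0.333. In bulk RNA of whole mycelium, fewer cells with the transcript and less transcript per cell cannot be told apart.

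**Figure D1:**
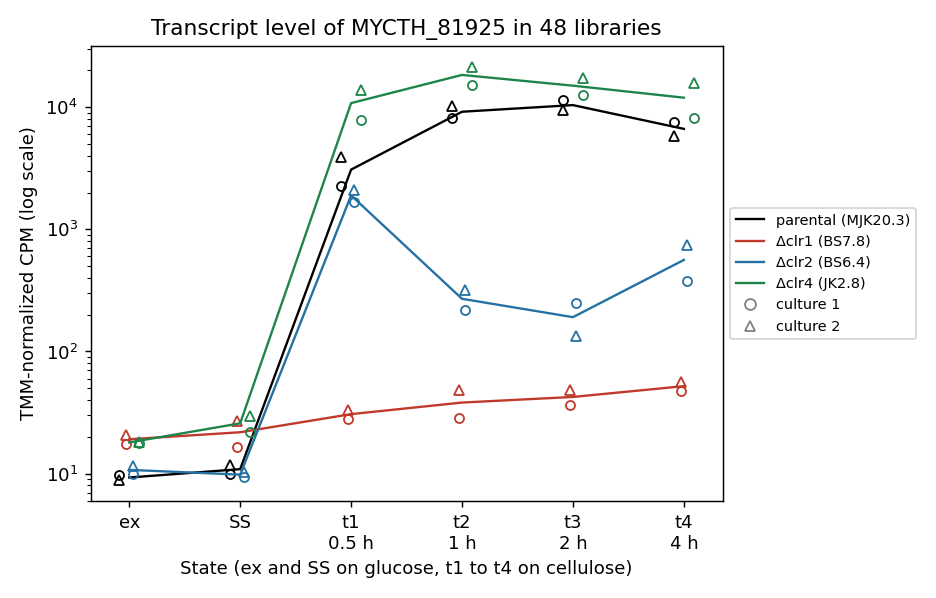
Transcript level of MYCTH_81925 in each of the 48 libraries, as TMM-normalized CPM on a log axis, against the state of the culture. Circles and triangles are cultures 1 and 2, and lines join the means of 2 cultures. The parental strain and Δclr4 rise from at most 29.8 CPM on glucose to at least 2252 CPM on cellulose, Δclr2 rises to 1683 and 2106 CPM at t1 and then falls, and Δclr1 stays at or below 56.7 CPM.

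Between the time points, the parental level rose a further 2.98-fold from t1 to t2 (log2 1.57, SE 0.35, adjusted p = 0.0018). The steps from t2 to t3 (log2 0.18, adjusted p = 0.77) and from t3 to t4 (-0.65, adjusted p = 0.23) did not pass the test, and t4 stood 1.11 log2 units above t1 (SE 0.35, adjusted p = 0.012). The call from t1 to t2 was lost without parental t1 replicate 1 (1.23, adjusted p = 0.072), and that from t1 to t4 without parental t1 replicate 1 (0.77, adjusted p = 0.18) or t4 replicate 1 (0.90, adjusted p = 0.11). In the parental strain 16.6% of all genes were called in either direction from t1 to t2, 20.0% from t2 to t3, 12.5% from t3 to t4 and 36.9% from t1 to t4.

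Δclr4 induced the gene to the highest levels within its centre, with no difference of response from the parental strain past the threshold. Its cultures had 7806 and 13774 CPM at t1, 15245 and 21462 CPM at t2, 12657 and 17318 CPM at t3, and 8128 and 15780 CPM at t4. The times overlapped with one another apart from t1, which lay below t2, and none overlapped with glucose. In replicate 2 the gene ranked between 7 and 10 per kb at all 4 times, and in replicate 1 between 13 and 21.

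The response of Δclr4 was 8.72 on the log2 scale at t1 (421-fold, SE 0.48), 9.48 at t2 (715-fold, SE 0.50), 9.19 at t3 (584-fold, SE 0.49) and 8.86 at t4 (466-fold, SE 0.49), each with an adjusted p of at most 9.2e-16. Of all genes, 17.9%, 23.5%, 16.1% and 8.34% were called higher at these times in Δclr4, and 18.2% higher and 25.7% lower over the mean. The mean response, 9.06 (SE 0.48, adjusted p = 1.9e-16), differed from that of the parental strain by -0.19 (SE 0.44, 95% interval -1.10 to 0.71, adjusted p = 0.96). At the single times the differences were 0.57 (interval -0.53 to 1.67), -0.24 (-1.33 to 0.85), -0.71 (-1.81 to 0.38) and -0.39 (-1.48 to 0.70). The intervals therefore leave room for a mean response up to 1.10 log2 units smaller or 0.71 larger, and at t1 for one up to 1.67 larger. SS was 21.8 and 29.8 CPM in Δclr4 against 10.0 and 11.7 CPM in the parental strain. The intervals do not cover a centre effect in these values other than a constant factor. Calls in this comparison were rare over all genes, with 0.0817%, 0.374%, 0.619% and 0.0% called in either direction at t1 to t4 and 0.0467% over the mean. A share of calls does not measure how far the strains differ. The difference of MYCTH_81925 at t1, 0.57, was not called and ranked 861 from the highest among the 8565 genes tested.

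No step between time points was called in Δclr4. The log2 steps were 0.77 from t1 to t2 (SE 0.35, adjusted p = 0.12), -0.29 from t2 to t3 (adjusted p = 0.60), -0.33 from t3 to t4 (adjusted p = 0.55) and 0.15 from t1 to t4 (adjusted p = 0.78). With the culture as a replicate block the first of these was called, at 0.80 (adjusted p = 0.029). The shares of all genes called in these 4 steps in Δclr4 were 19.3%, 23.7%, 19.6% and 35.9%.

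Without clr1 the gene stayed near its glucose level. The Δclr1 cultures had 28 and 33.4 CPM at t1, 28.4 and 48 CPM at t2, 36.4 and 48.5 CPM at t3, and 47.3 and 56.7 CPM at t4, from 344 to 585 reads in 7 of the 8 libraries and 198 in the eighth. All 8 stood above both SS libraries (16.6 and 27 CPM), and neighbouring times overlapped with one another, while t1 lay below both t3 and t4. The rank per kb moved from 6797 and 6246 at SS to 5239 and 4731 at t4.

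This small rise reached the threshold at the later times. The log2 response of Δclr1 was 0.48 at t1 (SE 0.36, adjusted p = 0.27), 0.81 at t2 (SE 0.36, adjusted p = 0.061), 0.95 at t3 (1.94-fold, SE 0.36, adjusted p = 0.026) and 1.25 at t4 (2.37-fold, SE 0.36, adjusted p = 0.0044), and the mean was 0.87 (SE 0.30, 95% interval 0.26 to 1.49, adjusted p = 0.013, rank 1308). With the culture as a replicate block the response at t2 was called too (0.80, adjusted p = 0.019). Of all genes, 23.8%, 24.9%, 25.8% and 25.7% were called higher at t1 to t4 in Δclr1, and 27.7% higher and 33.2% lower over the mean, so that a call of this kind was common.

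The calls of this rise turned on single libraries. Without Δclr1 SS replicate 1, the lower of the pair, the values were 0.61 at t3 (adjusted p = 0.26), 0.91 at t4 (adjusted p = 0.091) and 0.53 over the mean (adjusted p = 0.26), and without Δclr1 t3 replicate 2 the value at t3 was 0.71 (adjusted p = 0.18). The log2 steps between times in Δclr1 were 0.32 from t1 to t2, 0.15 from t2 to t3 and 0.29 from t3 to t4 (adjusted p = 0.59, 0.84 and 0.72). From t1 to t4 the step was 0.76 (SE 0.36, adjusted p = 0.088), with an adjusted p of 0.029 for the same size with the culture as a replicate block. Of all genes, 17.2%, 15.8%, 2.46% and 42.1% were called in these 4 steps.

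Against the parental response, that of Δclr1 was lower at all 4 times. The differences on the log2 scale were -7.67 at t1 (SE 0.58, adjusted p = 6.8e-12), -8.92 at t2 (adjusted p = 1.8e-13), -8.95 at t3 (adjusted p = 1.7e-13) and -8.01 at t4 (adjusted p = 2.2e-12), and -8.39 over the mean (SE 0.51, interval -9.43 to -7.35, adjusted p = 1.9e-14), 334-fold. Of all genes, 15.7%, 13.8%, 18% and 22% responded lower in Δclr1 than in the parental strain at t1 to t4, and 21.9% over the mean. Δclr4 offers a comparison of levels within one centre. Δclr1 differed from Δclr4 by 0.09 in ex (adjusted p = 1.00) and -0.23 in SS (adjusted p = 0.86), without a call on glucose, and by -8.46 at t1, then -8.90 at t2, -8.46 at t3 and -7.84 at t4 (adjusted p between 5.2e-16 and 5.9e-15). The shares of genes called lower in Δclr1 than in Δclr4 were 0.0117% in ex, 0.269% in SS, and 23.0%, 18.4%, 19.9% and 27.6% at t1 to t4.

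Without clr2 the gene was induced early, and most of that level was then lost. The Δclr2 cultures had 1683 and 2106 CPM at t1 from 7807 and 11141 reads, 220 and 319 CPM at t2, 247 and 134 CPM at t3, and 379 and 744 CPM at t4. No cellulose library overlapped with glucose, t1 stood above all later times, t2 and t3 overlapped, and t4 lay above both. The rank per kb was 7363 and 7307 at SS, 122 and 96 at t1, 1204 and 2341 at t3, and 636 and 260 at t4.

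Relative to SS the gene in Δclr2 was 194-fold higher at t1 (log2 7.60, SE 0.48, adjusted p = 8.5e-14), which ranked 9 among all genes tested, 27.7-fold at t2 (4.79, SE 0.44, adjusted p = 8.1e-11), 19.6-fold at t3 (4.29, SE 0.44, adjusted p = 8.7e-10) and 57.6-fold at t4 (5.85, SE 0.45, adjusted p = 7.5e-12). The shares of genes called higher at these times were 22.6%, 26.2%, 23.5% and 21.5%, with 26.1% higher and 30.6% lower over the mean. The fall from t1 to t2 was 7.02-fold (log2 -2.81, SE 0.37, adjusted p = 9.7e-07), while the step from t2 to t3 did not pass the test (-0.50, adjusted p = 0.31). The rise from t3 to t4 was 2.94-fold (1.56, SE 0.35, adjusted p = 0.0053) but was not called without Δclr2 t3 replicate 2 (1.18, adjusted p = 0.10) or t4 replicate 2 (0.98, adjusted p = 0.20), and t4 remained 3.37-fold below t1 (-1.75, SE 0.35, adjusted p = 0.00017). Of all genes 21.3%, 26.9% and 8.91% were called in the 3 successive steps in Δclr2, and 40.4% from t1 to t4.

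The response of Δclr2 at t1 did not differ from that of the parental strain beyond its error, and the later ones were lower. The difference of responses was -0.55 at t1 (SE 0.58, interval -1.73 to 0.64, adjusted p = 0.61), -4.93 at t2 (SE 0.60, adjusted p = 2.2e-07), -5.61 at t3 (SE 0.61, adjusted p = 2.5e-08) and -3.41 at t4 (SE 0.59, adjusted p = 3.9e-05), and -3.63 over the mean, 12.3-fold (SE 0.51, adjusted p = 2.5e-06). Of all genes, 8.02%, 12.4%, 15.3% and 18.6% responded lower in Δclr2 than in the parental strain at t1 to t4, and 18% over the mean. The 3 comparisons with the parental response share the parental libraries. Directly between the deletion strains, the mean response was lower in Δclr1 than in Δclr2 by 4.76 log2 units (-4.76, SE 0.47, adjusted p = 1.7e-08), where 2.39% of genes were called lower.

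The levels of Δclr2 and the parental strain, which came from one centre, followed the same order. The log2 difference was 0.23 in ex and -0.15 in SS (adjusted p = 1.00 in each), -0.70 at t1 (SE 0.35, interval -1.41 to 0.00, adjusted p = 0.13), -5.09 at t2, -5.77 at t3 and -3.56 at t4 (adjusted p between 1.4e-12 and 3.3e-09). At t1 the libraries of the strains did not overlap (1683 and 2106 against 2252 and 3909 CPM). With the culture as a replicate block the level difference was called (-0.70, adjusted p = 0.046). The block takes the difference between the cultures of a strain out of the error. In a comparison between strains that difference belongs to the error, so nothing is concluded from this call. The shares of genes called lower in Δclr2 were 0.0% in ex, 0.0584% in SS, and 16%, 20.7%, 24.3% and 27.1% at t1 to t4.

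**Figure D2:**
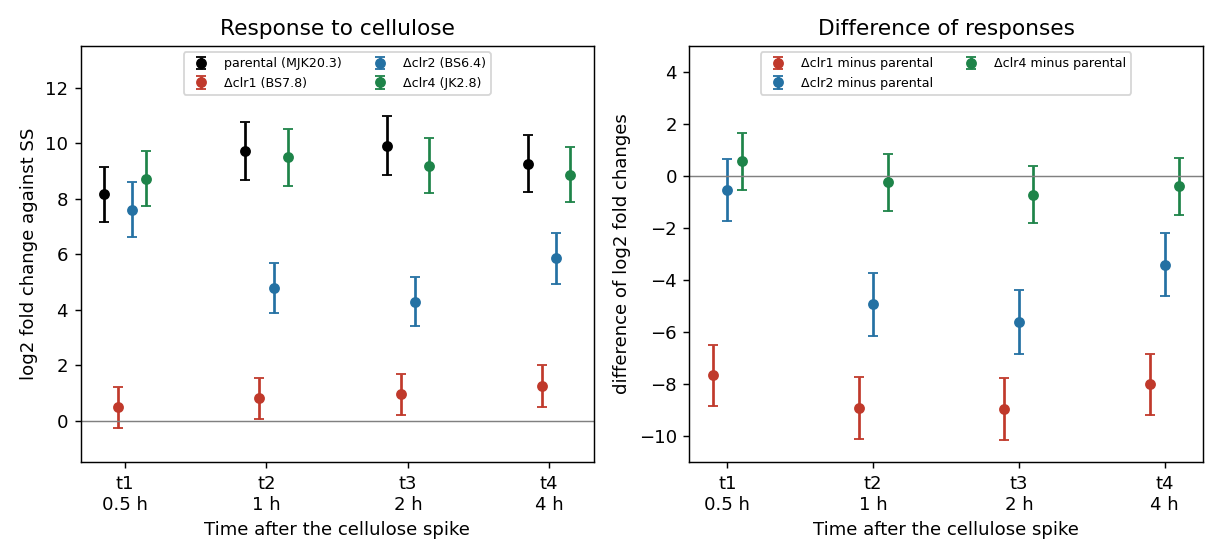
Left, log2 fold change of MYCTH_81925 at each time after the cellulose spike against SS of the same strain. Right, the difference of these responses between each deletion strain and the parental strain. Points are edgeR estimates with 95% intervals from 2 cultures per group. Δclr4 stays within 0.71 of the parental response, Δclr2 is near it at t1 (-0.55) and below it by 3.41 to 5.61 later, and Δclr1 is below it by 7.67 to 8.95 throughout.

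Ordered by mean level within the centre of the parental strain and Δclr2, the groups ran from parental t3 (10393 ± 1378 CPM, SD, n = 2), t2 (9170 ± 1520), t4 (6640 ± 1258) and t1 (3080 ± 1171) to Δclr2 t1 (1894 ± 299), t4 (561 ± 258), t2 (270 ± 70.2) and t3 (191 ± 79.8), followed by the 4 glucose groups between 9.29 and 10.9 CPM. Neighbours in this order whose libraries overlapped were parental t3 and t2, Δclr2 t2 and t3, and each adjacent pair of glucose groups. In the other centre the order was Δclr4 t2 (18354 ± 4396 CPM), t3 (14988 ± 3296), t4 (11954 ± 5411) and t1 (10790 ± 4220), then Δclr1 t4 (52 ± 6.68), t3 (42.4 ± 8.53), t2 (38.2 ± 13.9) and t1 (30.7 ± 3.83), and last the 4 glucose groups between 18 and 25.8 CPM. There, the libraries of all neighbours overlapped apart from the step from Δclr4 t1 to Δclr1 t4.

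The annotation lists 3 more CDH genes, on 3 other chromosomes. MYCTH_111388 (chromosome 3, 3744679 to 3747869, 3191 bp) has the same AA8 and AA3 modules and in addition a cellulose-binding module (CBM1), MYCTH_58125 (chromosome 7, 417557 to 420062) has only AA3, and MYCTH_90517 (chromosome 6, 3361978 to 3362813, 836 bp), described as CDH-like, only AA8. Over the mean of t1 to t4, all 4 genes were called higher in the parental strain, in Δclr2 and in Δclr4, and 2 of 4 in Δclr1 (MYCTH_81925 and MYCTH_58125), with medians of 6.73, 4.01, 6.37 and 0.86 on the log2 scale in that order. Of all tested genes, 15.3%, 26.1%, 18.2% and 27.7% were called higher in the same strains, with medians of -0.06, 0.00, -0.05 and -0.02. MYCTH_81925 itself is counted among the 4 genes. Reads shared between these genes could have been split by the counting, and their sequence identity was not tested.

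MYCTH_111388 rose with MYCTH_81925 in the parental strain and in Δclr4. In the parental strain it went from 8.64 and 10.1 CPM at SS to 3692 and 5033 CPM at t1, 12965 and 16437 CPM at t2, 14982 and 16675 CPM at t3, and 15035 and 12136 CPM at t4. In Δclr4 it went from 6.94 and 16.8 CPM to between 7055 and 22198 CPM, and in Δclr1 it stayed between 3.67 and 11.9 CPM, with no time called (mean response 0.05, SE 0.34, adjusted p = 0.91). Its mean responses were 10.18 (SE 0.53) in the parental strain and 10.34 (SE 0.52) in Δclr4, with a difference between them of 0.16 (adjusted p = 0.97).

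In Δclr2 the genes parted in size and in time. MYCTH_111388 had 276 and 368 CPM at t1, 44.5 and 62.8 CPM at t2, 68.9 and 34.3 CPM at t3, and 219 and 436 CPM at t4, so that t4 overlapped with t1 (log2 step 0.03, adjusted p = 0.97), where MYCTH_81925 stood lower at t4 by 1.75. Its response at t1 was 5.5 (SE 0.47, adjusted p = 4.2e-11), below that of the parental strain by 3.37 log2 units (-3.37, SE 0.64, adjusted p = 0.00056), and its level at t1 was below the parental one by 3.76 (-3.76, adjusted p = 1.2e-08). For MYCTH_81925 the same contrasts gave -0.55 and -0.70. Whether the difference between strains differs between these genes was not tested.

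The ratio of the genes within each library shows the same parting. Per kb of gene span, the log2 ratio of MYCTH_81925 to MYCTH_111388 in the parental strain was 0.26 and 0.27 at SS and between -1.03 and -0.32 on cellulose, so that MYCTH_81925 was the less abundant of the pair after the spike. In Δclr2 the ratio was 0.59 and 0.38 at SS, 2.66 and 2.56 at t1 (6.30 and 5.91 on the linear scale), 2.35 and 2.39 at t2, then 1.89 and 2.02 at t3 and finally 0.84 and 0.82 at t4. All 8 cellulose libraries of Δclr2 were above 0 and all 8 of the parental strain below. In Δclr4 the ratio was 1.7 and 0.87 at SS and between -0.46 and 0.46 on cellulose. In Δclr1, where the partner had few reads, it was 2.26 and 1.62 at SS and between 2.24 and 3.75 on cellulose. The SS ratios of these strains were thus already above those of the parental strain and Δclr2, a split in which strain and centre cannot be told apart.

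**Figure D3:**
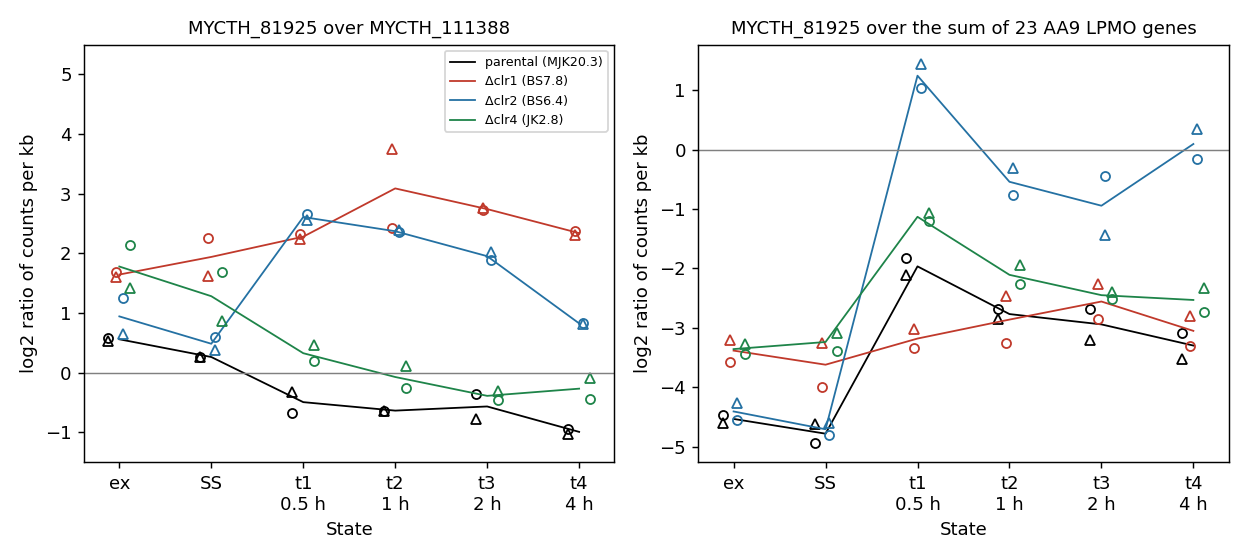
Log2 ratio of MYCTH_81925 to MYCTH_111388 (left) and to the sum of 23 AA9 LPMO genes (right), both in counts per kb of gene span, in each library by state. Circles and triangles are cultures 1 and 2, and lines join means. On the left, Δclr2 reaches 2.66 and 2.56 at t1, while the parental strain lies between -1.03 and -0.32 on cellulose. On the right, Δclr2 at t1 is the only group in which both libraries are above 0.

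The other CDH genes were low throughout. MYCTH_58125 rose in the parental strain from 2.55 and 1.68 CPM at SS to 12.0 and 10.9 CPM at t4, and in Δclr2 from 3.48 and 4.24 CPM to 25.4 and 21.4 CPM at t1, with mean responses of 1.73 (adjusted p = 0.0010) and 1.71 (adjusted p = 0.00020). In Δclr4 the mean response was 1.95 (adjusted p = 1.1e-05) and in Δclr1 0.86 (adjusted p = 0.030). MYCTH_90517 had 4 and 1 reads at SS and 38 and 43 at t1 in the parental strain, and 3 and 1 at SS and 99 and 147 at t1 in Δclr2 (21.3 and 27.8 CPM). With such counts only the direction of its rise can be read, and its mean response was called in these strains and in Δclr4 but not in Δclr1 (adjusted p = 0.11).

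LPMOs of family AA9, which take electrons from CDH, were examined as a list of 25 genes, of which 23 were tested. Over the mean of t1 to t4, 15 were called higher and 0 lower in the parental strain (median 5.90 on the log2 scale), 17 higher and 2 lower in Δclr4 (5.99), 10 higher and 1 lower in Δclr2 (1.03) and 3 higher and 2 lower in Δclr1 (0.36). Of all tested genes, 15.3%, 18.2%, 26.1% and 27.7% were called higher in these strains in this order, so the count in Δclr1 was below the share of all genes. The strongest in the parental strain was MYCTH_110651, with 1 and 2 reads at SS. Setting the genes with no read at SS to the bound that a group total of 3 counts sets changed the median to 0.54 in Δclr2 and to 0.35 in Δclr1.

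Set against the summed level of these AA9 genes per kb, which does not include the CDH, the CDH transcript stood at 3.25 and 4.06% at SS in the parental strain. It reached 28.2 and 23.3% of the AA9 sum at t1, 15.6 and 13.8% at t2, then 15.6 and 10.9% at t3 and finally 11.8 and 8.73% at t4. In Δclr4 it was 9.52 and 11.8% at SS, 43.6 and 47.9% at t1, and between 15.1 and 25.9% from t2 to t4. In both strains this ratio was highest at t1 in both cultures.

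In Δclr2 the CDH transcript exceeded the AA9 transcripts together at t1, at 206 and 274% of their sum, from 3.56 and 4.11% at SS. It was 58.8 and 80.4% at t2, then 73.3 and 36.9% at t3 and finally 89.6 and 127% at t4, above every parental library on cellulose. In Δclr1 the ratio was 6.28 and 10.5% at SS and ranged from 9.83 to 20.9% on cellulose. These ratios are descriptions and carry no test.

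Counts of called cellulase genes were read in the same way, against the shares of all genes called higher (15.3% in the parental strain, 18.2% in Δclr4, 26.1% in Δclr2, 27.7% in Δclr1) and lower (21.4%, 25.7%, 30.6% and 33.2%) over the mean. Of 6 tested cellobiohydrolases, which release cellobiose from chain ends, 6 were called higher over the mean in the parental strain and in Δclr4 (medians 8.0 and 8.11), 4 in Δclr2 (2.00) and 2 in Δclr1 (0.10), with none lower. Of 9 genes listed as endoglucanases, which cut within chains, 8 were higher and 0 lower in the parental strain and in Δclr4. The counts were 4 and 0 in Δclr2, and 2 and 3 in Δclr1, where they were near the shares of all genes. The 2 higher in Δclr1 were MYCTH_94336 (1.88), described as a β-1,6-galactanase, and MYCTH_43356 (0.605), described only as a GH5 protein. Both were also among the 4 in Δclr2. Of 9 β-glucosidases, which split cellobiose, 4 were higher and 1 lower in the parental strain, in Δclr2 and in Δclr4, and 3 higher and 3 lower in Δclr1. The median was higher in Δclr2 (1.62) than in the parental strain (0.14), but it was the value of MYCTH_2129052, which was not called (adjusted p = 0.24). The 4 genes called higher in the parental strain had smaller mean responses in Δclr2. These were 3.36 against 5.83 (MYCTH_115968), 3.76 against 6.02 (MYCTH_66804), 7.63 against 9.65 (MYCTH_62925) and 7.09 against 11.98 (MYCTH_58882). MYCTH_81925 had a larger mean response in Δclr2 than every cellobiohydrolase tested. However, 2 β-glucosidases, 2 AA9 genes and 1 endoglucanase had a larger one still, of which the endoglucanase and 1 AA9 gene were not called.

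The remaining redox lists are small, and several of their counts, 1 of 5 or 1 of 7 for example, lie near the shares of all genes called, 15.3 to 27.7% higher and 21.4 to 33.2% lower over the mean. Of 7 tested oxidases and dehydrogenases of other auxiliary activity families, 4 were higher and 1 lower in the parental strain and 4 higher and 3 lower in Δclr4, against 3 in each direction in Δclr1 and in Δclr2. Of 5 other AA3 oxidoreductases, which have the flavin module without a CDH annotation, 1 was lower and 0 higher in the parental strain as in Δclr1, 1 was higher and 1 lower in Δclr2, and 2 were lower and 0 higher in Δclr4. Among 7 tested LPMOs of other families, 1 was higher and 1 lower in the parental strain and in Δclr4, 0 and 3 in Δclr1, and 0 and 2 in Δclr2. The lone AA8 cytochrome tested, MYCTH_2307267, was called higher in the parental strain (1.46), in Δclr2 (0.79) and in Δclr4 (2.05), and had -0.06 in Δclr1 (adjusted p = 0.84).

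**Figure D4:**
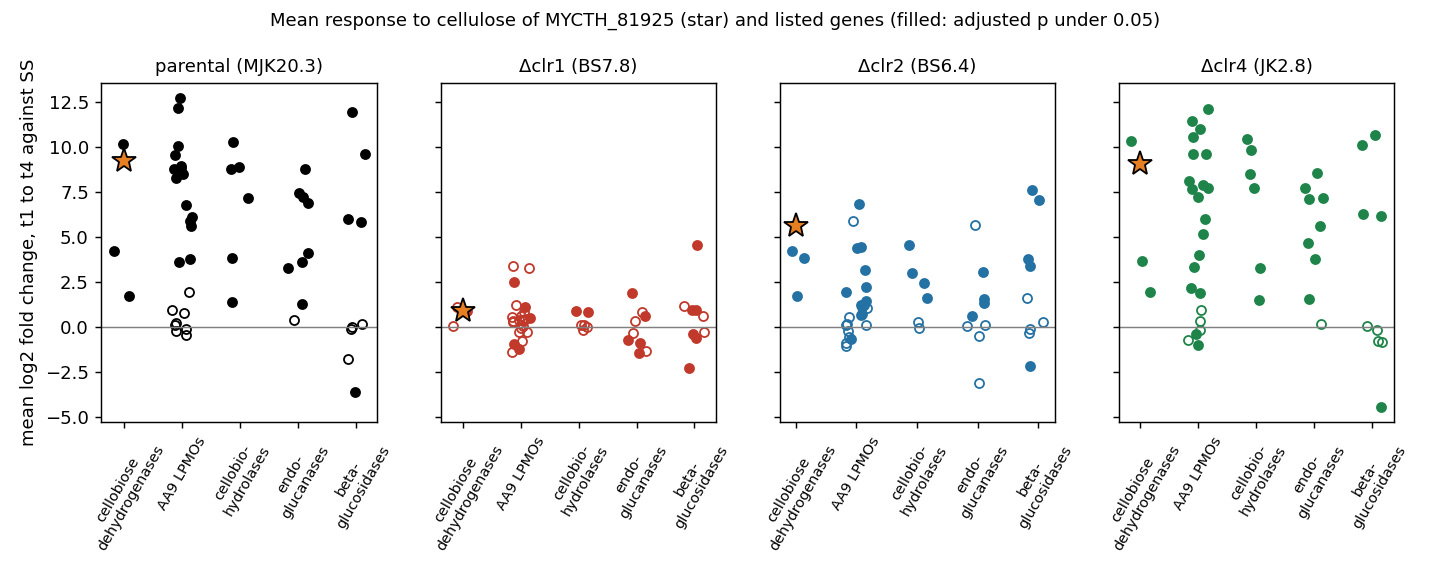
Mean log2 fold change over t1 to t4 against SS for MYCTH_81925 (star) and the tested genes of 5 lists, one panel per strain. Each point is a gene, filled where the adjusted p was under 0.05. The star is at 9.26 (parental), 0.87 (Δclr1), 5.63 (Δclr2) and 9.06 (Δclr4). In Δclr2 it lies above every cellobiohydrolase, but below 2 β-glucosidases, 2 AA9 LPMOs and 1 endoglucanase.

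The genes with the pattern most like that of MYCTH_81925 were also mostly enzymes of cellulose breakdown. Over the 24 group means of log2 CPM, the 8 highest Pearson correlations belonged to the GH3 β-glucosidase MYCTH_58882 (r = 0.99), the GH6 cellobiohydrolase MYCTH_2303045 (0.99), MYCTH_2305813 (0.98), the GH3 β-glucosidase MYCTH_62925 (0.98), the CDH gene MYCTH_111388 (0.98), the GH45 endoglucanase MYCTH_76901 (0.98), the GH1 β-glucosidase MYCTH_115968 (0.98) and MYCTH_2298860 (0.98). Of these, 6 are among the 396 carbohydrate-active enzyme genes of the annotation used. The points share libraries and scaling, and most of the range comes from the contrast between glucose and cellulose. All 8 were also the highest over the 48 single libraries, and 3 of them by Spearman correlation. Over the 16 responses, the 5 highest were MYCTH_76901 (0.99), MYCTH_2298860 (0.99), the GH11 xylanase MYCTH_100068 (0.99), MYCTH_58882 (0.99) and the CBM1 protein MYCTH_33936 (0.98).

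These 8 genes were chosen for a pattern over groups that include Δclr2 at t1 and t2, so a fall between these times in Δclr2 is largely set by the choice and is given as a description only. The cellobiohydrolase MYCTH_2303045 went from t1 to t2 from 362 and 410 CPM to 45.5 and 49.8 CPM, the endoglucanase MYCTH_76901 from 508 and 571 to 81.3 and 94.4 CPM, and the β-glucosidase MYCTH_115968 from 3385 and 4769 to 674 and 1056 CPM. The β-glucosidase MYCTH_62925 went from 416 and 536 to 111 and 226 CPM. In Δclr1, where MYCTH_81925 rose slightly, MYCTH_76901 had 24.2 and 27.9 CPM at SS and 7.56 and 5.99 CPM at t4. It had the lowest mean response of the 8 genes there (-1.45), and the highest was 1.19 (MYCTH_58882, not called), against 0.87 for MYCTH_81925.

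The next gene at higher coordinates is an AA9 LPMO, MYCTH_116175 (chromosome 4, 3812660 to 3813624), whose span starts 3751 bases after the end of MYCTH_81925. It was looked up for its position, outside the rule for named genes and with earlier results known. In the parental strain it rose from 1.18 and 0.72 CPM at SS to 21.9 and 13.1 CPM at t1 and 100 and 97.6 CPM at t4, and in Δclr2 from 0.87 and 0.71 CPM to 12.1 and 18.3 CPM at t1 and 24.3 and 41 CPM at t4. Its mean response was 5.61 in the parental strain, 5.15 in Δclr4, 4.4 in Δclr2 (adjusted p = 8.1e-10) and -0.94 in Δclr1 (SE 0.35, adjusted p = 0.021). Unlike MYCTH_81925 it had its highest level in Δclr2 at t4. Its correlation with MYCTH_81925 over the 24 group means was 0.96, rank 18, and the next tested neighbours on either side had r of 0.60 (MYCTH_2111512), 0.23 (MYCTH_2065691) and 0.23 (MYCTH_2020046).

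Of the regulators, clr2 (MYCTH_38704) rose with MYCTH_81925 in the parental strain and in Δclr4. In the parental strain clr2 went from 8.64 and 14.8 CPM at SS to 298 and 493 CPM at t1, 959 and 835 CPM at t2, 507 and 517 CPM at t3, and 561 and 469 CPM at t4 (mean response 5.57, SE 0.37, adjusted p = 7.2e-12). In Δclr4 it reached 2100 and 2245 CPM at t1 and 2166 and 2833 CPM at t2 (mean 6.79). In Δclr1 it had 14.1 and 16.2 CPM at SS and 46.4 and 42.4 CPM at t4, with responses of 0.94 at t1 (adjusted p = 0.018), 1.55 at t4 (adjusted p = 0.00029) and 0.67 over the mean (adjusted p = 0.034). Both genes thus stayed at or below 56.7 CPM in Δclr1.

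The transcript of xyr1 (MYCTH_2310145), an activator of hemicellulase genes in related fungi, had no called difference of mean response between Δclr2 and the parental strain, but its level parted from the parental one at t2. Its mean response was 3.71 in the parental strain and 3.61 in Δclr2 (difference -0.11, SE 0.36, adjusted p = 0.87), 4.74 in Δclr4 and 0.07 in Δclr1 (adjusted p = 0.83). In Δclr2 it had 43.1 and 57.9 CPM at SS, 443 and 512 CPM at t1, 378 and 517 CPM at t2, 766 and 519 CPM at t3, and 943 and 1063 CPM at t4. At t2 its level in Δclr2 was below the parental level by 1.67 (-1.67, SE 0.31, adjusted p = 6.5e-05), with a difference of response of -1.13 (adjusted p = 0.067). Its libraries at t1 and t2 in Δclr2 overlapped, where those of MYCTH_81925 did not.

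The clr1 transcript (MYCTH_2298863) was lower in ex than in SS in the parental strain (-2.78), in Δclr2 (-2.94) and in Δclr4 (-3.05), with adjusted p of at most 4.1e-11 in each, while MYCTH_81925 had no call in that contrast. Its mean response to cellulose was -0.15 in the parental strain (adjusted p = 0.54), -0.01 in Δclr4 (adjusted p = 0.98) and -0.66 in Δclr2 (adjusted p = 0.00096). At t2 in Δclr2 its response was -1.09 (adjusted p = 8.2e-05), below the parental one by 1.15 on the log2 scale (-1.15, SE 0.31, adjusted p = 0.0068). The clr4 transcript (MYCTH_2296492) had -0.09 in the parental strain (adjusted p = 0.55), 0.59 in Δclr1 (adjusted p = 3.9e-05) and 0.25 in Δclr2 (adjusted p = 0.062). The gene of the carbon catabolite repressor CRE1 (MYCTH_2310085) was higher on cellulose by 0.86 in the parental strain (adjusted p = 6.2e-06) and 0.71 in Δclr4 (adjusted p = 4.4e-05), and lower in Δclr1 (-0.46, adjusted p = 0.0018) and Δclr2 (-0.57, adjusted p = 0.00020).

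**Figure D5:**
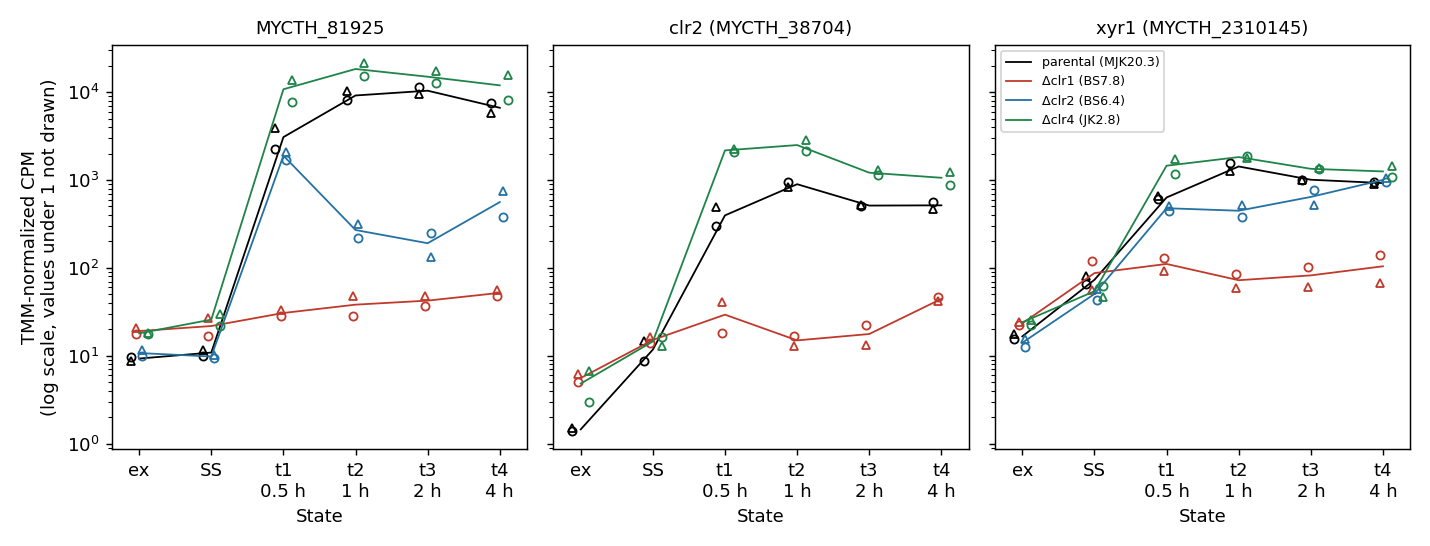
TMM-normalized CPM on a log axis of MYCTH_81925, clr2 and xyr1 in each library by state, with values under 1 not drawn. Circles and triangles are cultures 1 and 2, and lines join means. In Δclr2, MYCTH_81925 falls from 1683 and 2106 CPM at t1 to 220 and 319 CPM at t2, while xyr1 has 443 and 512 CPM at t1 and 378 and 517 CPM at t2.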

How the data were processed

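Poly(A) RNA was sequenced by the authors from 4 strains in 6 states, 2 cultures each. After quality control with FastQC and, where needed, trimming with BBTools, the authors used STAR to map the reads to assembly ASM22609v1. Versions, strand setting and counting program are not given in the sources used here. The deposited table of raw read counts per gene was the only input. The deposited normalized values, fold changes and p-values of the authors were not used. The 49 sample entries make 48 libraries, since 1 library of Δclr4 was run on 2 flow cells and has 1 column.

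Genes were filtered with filterByExpr (minimum count 10), which left 8565 and removed 727. Counts were scaled by TMM, and edgeR 4.0.16 (limma 3.58.1, R 4.3.3) fitted a robust quasi-likelihood model with 24 groups (24 residual degrees of freedom, biological coefficient of variation 0.151, for MYCTH_81925 0.243). P-values were adjusted by the Benjamini-Hochberg method over all tested genes of a contrast, with a threshold of 0.05. The test was tried on simulated data. Counts per kb used the gene span of the RefSeq annotation, introns included. Correlations used log2 CPM with a prior count of 2.

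As alternatives, DESeq2 1.42.0 (Wald test), its size factors or library totals in edgeR, no filter and only the compared strains were tried. Further alternatives were a fit without the exponential libraries, an absolute log2 fold change of at least 1, a replicate block and the omission of each library. Libraries of a strain with one number come from the same culture, as the sample names give it, and the median correlation of their residuals was 0.0396 (parental), 0.217 (Δclr1), 0.0854 (Δclr2) and 0.248 (Δclr4), from 15 pairs of states per strain. The gene and all lists were chosen with earlier results of these data known. Lists followed the annotation of carbohydrate-active enzymes. Named genes were the CDH genes and regulators, up to 3 members of each other list by mean response in the parental strain, the 8 genes most correlated over groups and the 5 over responses. No sequence was used. Figures were drawn with matplotlib 3.10.9.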

Additional observations from a re-analysis of the deposited data

Results flagged for a closer look

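The response of MYCTH_81925 to cellulose differed between strains in tests of the difference itself by edgeR's quasi-likelihood test. Δclr1 responded less than the parental strain, with log2 differences of -7.67 at t1, -8.92 at t2, -8.95 at t3, -8.01 at t4 and -8.39 over the mean. Δclr2 responded less at t2 (-4.93), t3 (-5.61) and t4 (-3.41) and over the mean (-3.63), and Δclr1 less than Δclr2 over the mean (-4.76). These comparisons share the parental or Δclr2 libraries. A single library standing apart could not be tested for in groups of 2.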

How the results depend on the processing

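Of 68 results of MYCTH_81925, 40 were called, and 34 of these kept their call under every alternative run, leaving out each library included. Apart from leaving out libraries, 460 of 470 alternative values kept direction and side of the threshold. The response of Δclr1 at t2, not called as reported, was called with DESeq2 (0.92), its size factors (0.91), library totals (0.90), the compared strains only (0.85) and the replicate block for the culture (0.80). The Δclr1 step from t1 to t4 was called with library totals (1.00) and the block (0.76), the Δclr4 step from t1 to t2 with the block (0.80), and the level of Δclr2 against the parental strain at t1 with the block (-0.70). The block changed no other call of this gene. The difference of ex against SS in Δclr2 turned to -0.018 with library totals. Library totals moved the median of all genes by up to 0.34 and the size factors of DESeq2 by up to 0.11 on the log2 scale.

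Leaving out single libraries gave 1.23 to 2.03 for the parental step from t1 to t2, 0.77 to 1.56 for that from t1 to t4, and 0.98 to 2.06 for the Δclr2 step from t3 to t4. For Δclr1 it gave responses of 0.37 to 1.21 at t2, 0.61 to 1.35 at t3, 0.91 to 1.65 at t4 and 0.53 to 1.27 over the mean, steps of -0.11 to 0.65 from t1 to t2 and -0.22 to 0.58 from t2 to t3, and -0.54 to 0.21 for ex. For Δclr4 the steps were -0.88 to 0.074 from t3 to t4 and -0.41 to 0.61 from t1 to t4, and the differences from the parental response -0.95 to 0.008 at t4 and -0.41 to 0.048 over the mean. The levels of Δclr1 against Δclr4 were -0.039 to 0.20 in ex and -0.63 to 0.063 in SS. In these fits a lone library is assumed to vary like the other groups.

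Among list counts, 215 of 240 alternatives stayed within 1.5 times the reported count. With a log2 fold change of at least 1, Δclr1 had 1 gene of the endoglucanase list higher, the β-1,6-galactanase MYCTH_94336, and 1 lower. It had 0 cellobiohydrolases higher, 1 β-glucosidase higher and 1 lower, 1 AA9 gene lower, 0 CDH genes higher, and 0 regulators higher and 0 lower. Δclr2 had 0 AA9 genes lower, 0 lone AA8 and 0 other AA3 genes higher and 0 regulators lower, and Δclr4 had 0 AA9 genes and 1 other AA3 gene lower. The block gave 2 β-glucosidases lower in Δclr4, 2 AA9 genes lower in Δclr2, 2 other oxidases lower in the parental strain, 1 other AA3 gene higher in Δclr1 and 1 in Δclr4, and 2 regulators higher in Δclr2. DESeq2 gave 0 AA9 genes lower in Δclr4, 1 other AA3 gene higher in Δclr1 and 1 in Δclr4, and 2 regulators higher in Δclr2. Of the 8 genes of most similar pattern, 3 were shared by Spearman correlation. With 35 to 51 reads of MYCTH_81925 in the parental glucose libraries, counting limits the precision of the folds there, and folds of genes with few reads at SS are less certain still.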
